A study of Mus musculus with 8 samples.

Results

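Ribosome biogenesis and nucleolar protein genes are described here in the mouse uterus shortly before embryo attachment. The list held 43 genes, set by symbol with earlier results of these data known, so comparisons with all probe sets describe this list only. Of these genes, 42 had a probe set that carried their symbol alone, among 19938 genes so represented on the array. Noc2l, the remaining gene, was not analysed here. Where several probe sets carried a symbol, the brightest by its mean over the 8 arrays stood for the gene.

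Uteri came from virgin C57BL/6 females, an inbred laboratory strain, and were collected on day 3 at 22 h, with the mating night as day 0. The pregnant group comprised 4 uteri of females paired with fertile stud males. Injected blue dye marked no attachment site in them, and flushing yielded blastocysts. The pseudopregnant group comprised 4 uteri of females mated with vasectomised males, so that the hormonal course of early pregnancy ran without embryos. Both groups were wild type and carried no allele or drug treatment, per the labels, and every array carries its own biological replicate number in the labels. The males differed between the groups too, so effects of mating and effects of embryos cannot be told apart. Samples had been chosen for RNA quality, with RNA integrity numbers of 6.9 to 8.7, and median intensities were 52.9 to 54.2. All 8 markers of uterine identity examined, among them the hormone receptors Esr1 and Pgr and the homeobox genes Hoxa10 and Hoxa11, lay above the intensity line (the 40th percentile of each array's probe sets) on every array. With 4 arrays a group, precision is limited by their number.

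Ribosomes are built in the nucleolus. RNA polymerase I transcribes the precursor of the ribosomal RNAs, small nucleolar ribonucleoproteins (snoRNPs) guide its methylation, pseudouridylation and cleavage, and large assemblies of processing factors fold and trim it into the small and large subunits. In the uterus before implantation, estrogen and progesterone control when epithelial and stromal cells grow and divide, and growing cells make more ribosomes.

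Most of the 42 genes had a higher mean in pregnant than in pseudopregnant uteri, by small amounts. A log2 difference above 0 was found for 38 of 42 (90.5%), against 50.6% of the 17491 probe sets that passed the intensity filter. The median log2 difference was 0.16, against 0.0019 over all kept probe sets, and the single differences ran between -0.18 and 0.49. Only Dkc1 rose by the criterion used throughout, a limma adjusted p under 0.05 over all kept probe sets. That is 2.38% of the 42 genes, against 1.41% of all probe sets called higher and 1.82% called in either direction, and 0 fell, against 0.412% of all, so the count of called genes was near the background. With an unadjusted p under 0.05, limma put 22 of 42 higher (52.4%, against 14.3% of all probe sets) and 1 lower (9.43% of all). All 4 pregnant values exceeded all 4 pseudopregnant values for 13 genes (31%), against 9.23% of all probe sets, and the reverse held for 0 genes, against 5.39%. In these bulk samples, more cells of a type and more RNA per cell cannot be told apart.

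**Figure D1:**
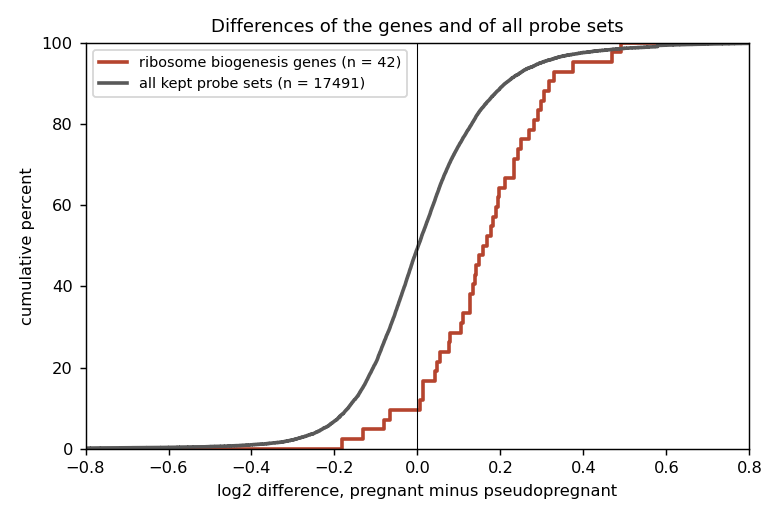
Cumulative percent (vertical axis) of the log2 differences, pregnant minus pseudopregnant (horizontal axis), for 42 ribosome biogenesis genes (red) and for all 17491 kept probe sets (grey). The red curve lies to the right of the grey one over most of the range, with medians of 0.16 and 0.0019.

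The snoRNP proteins include the only gene that rose. Dkc1 encodes dyskerin, the pseudouridine synthase of box H/ACA snoRNPs, which is also a part of telomerase. Its log2 intensities were 7.57, 7.64, 7.51 and 7.55 in the pregnant uteri, against 6.92, 7.17, 6.98 and 7.25 in the pseudopregnant uteri. The groups did not overlap, and the pregnant values were close together (7.57 ± 0.054, against 7.08 ± 0.15; SD, n = 4 each). The log2 difference was 0.49 ± 0.077 (SE), 1.40-fold, with a limma adjusted p of 0.024. The call was lost without pregnant replicate 1 (adjusted p = 0.051) or 4 (0.054), without pseudopregnant replicate 1 (0.063) or 3 (0.064), and without the intensity filter (0.053), while the difference stayed between 0.44 and 0.55.

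The partners of dyskerin in the H/ACA particle did not move with it by that criterion. Gar1 lay at 7.99, 7.99, 8.004 and 7.97 in pregnant uteri and at 7.80, 7.91, 7.95 and 7.79 in pseudopregnant uteri, a log2 difference of 0.13 ± 0.054 (SE, limma adjusted p = 0.19). Its groups did not overlap, but the gap between them was narrow. Nhp2 differed by 0.05 ± 0.060 (limma adjusted p = 0.61). Nop10 had 8.46, 8.29, 8.23 and 8.48 in pregnant uteri, against 8.44, 8.66, 8.53 and 8.35 in pseudopregnant uteri. Its log2 difference was -0.13 ± 0.083 (SE, limma adjusted p = 0.35), with overlapping groups, and the 95% interval of -0.32 to 0.05 does not reach the difference of Dkc1.

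Among the box C/D proteins, which form the particle that methylates the ribose of ribosomal RNA, Nop58 was the next gene by p. It had 7.43, 7.54, 7.56 and 7.60 in pregnant uteri, against 7.23, 7.40, 7.22 and 7.10 in pseudopregnant uteri, without overlap (0.30 ± 0.071, SE; limma adjusted p = 0.058). Its scaffold partner Nop56 differed by 0.20 ± 0.068 (limma adjusted p = 0.13) and the snoRNP chaperone Nolc1 by 0.24 ± 0.096 (0.17), both with overlapping groups. The methyltransferase gene Fbl gave 7.42, 7.35, 7.46 and 7.57 in pregnant uteri and 7.78, 7.62, 7.33 and 7.39 in pseudopregnant uteri, a log2 difference of -0.08 ± 0.098 (limma adjusted p = 0.65). This probe set of Fbl was flanked in the order of identifiers by probe sets of genes on chromosome 17, whereas Fbl lies on chromosome 7. The dimmer Fbl probe set, flanked by chromosome 7 genes, gave 7.06, 6.91, 7.02 and 7.04 in pregnant uteri, against 6.89, 6.80, 6.92 and 6.95, and a difference of 0.12 ± 0.057 (limma adjusted p = 0.24). The sign for Fbl thus depended on the probe set.

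**Figure D2:**
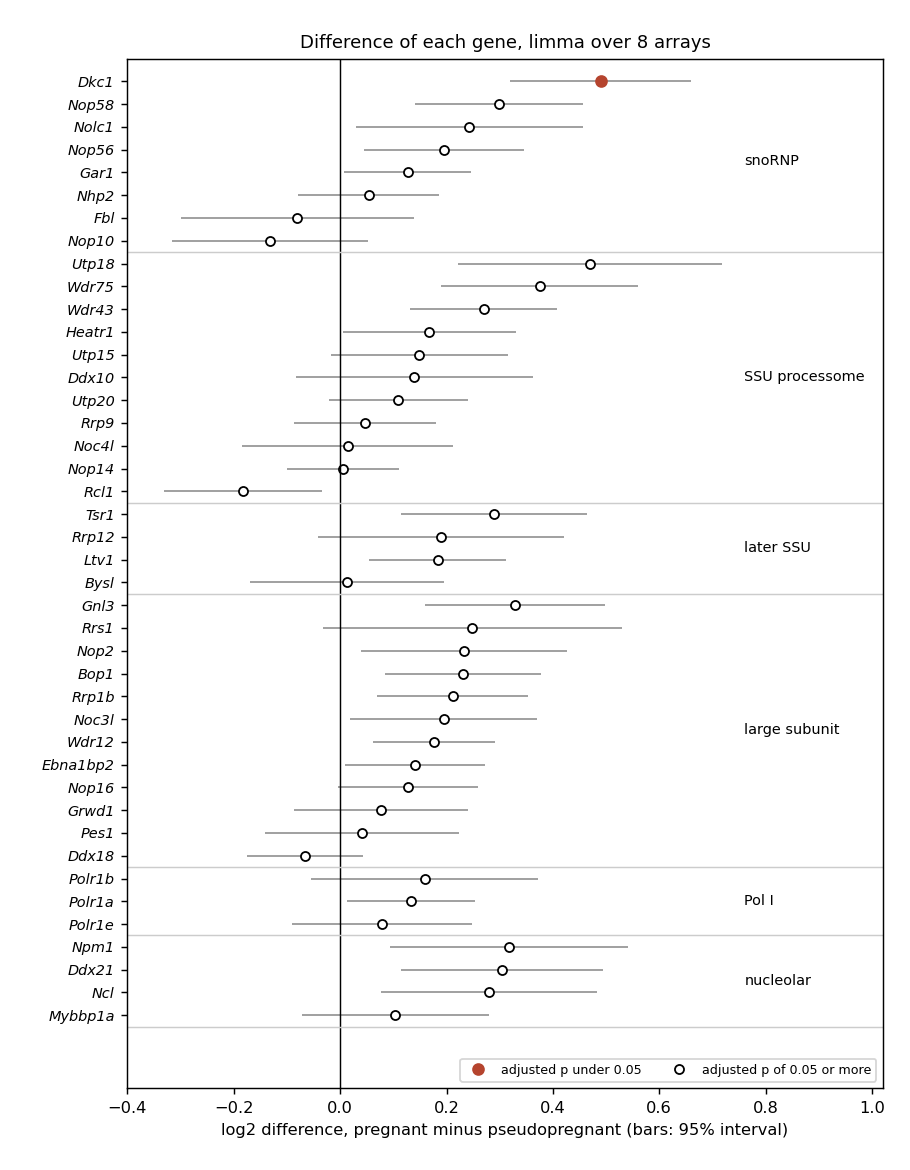
Log2 difference of each of 42 genes, pregnant minus pseudopregnant (horizontal axis; points, with 95% intervals from limma, 4 arrays per group), in groups by role (SSU, small subunit). The filled point is Dkc1, the gene with an adjusted p under 0.05, and 4 genes (Rcl1, Nop10, Fbl and Ddx18) lie below 0.

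The small subunit processome is the assembly that forms on the nascent ribosomal RNA and makes the early cuts towards the small subunit. Of its 11 genes, 0 passed the limma threshold. At an unadjusted limma p under 0.05, 4 were higher and 1 was lower, against 14.3% and 9.43% of all probe sets. The largest differences belonged to Utp18, Wdr75 and Wdr43, WD repeat proteins of the early subcomplexes. Wdr75 had 7.95, 8.06, 8.06 and 7.91 in pregnant uteri, against 7.47, 7.86, 7.58 and 7.57 in pseudopregnant uteri. The groups did not overlap, although pseudopregnant replicate 2 came close, and the log2 difference was 0.38 ± 0.083 (SE, limma adjusted p = 0.053). Utp18 had 6.67, 6.84, 6.89 and 6.74, against 6.03, 6.59, 6.44 and 6.21 (0.47 ± 0.11, SE; limma adjusted p = 0.058). Wdr43 had 7.998, 7.98, 8.12 and 8.04, against 7.76, 7.90, 7.68 and 7.72 (0.27 ± 0.062, SE; limma adjusted p = 0.055). For both, the lowest pregnant value was above the highest pseudopregnant value, which was that of replicate 2.

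The other processome genes lay closer to 0. Heatr1 (0.17), Utp15 (0.15), the helicase gene Ddx10 (0.14), Utp20 (0.11) and the U3 snoRNP protein gene Rrp9 (0.05) had positive log2 differences and overlapping groups, with limma adjusted p between 0.20 and 0.66. Nop14 had 6.93, 6.83, 6.85 and 6.86 in pregnant uteri, against 6.84, 6.90, 6.85 and 6.86 in pseudopregnant uteri, and its binding partner Noc4l had 7.14, 7.07, 7.06 and 7.18, against 7.24, 7.22, 7.10 and 6.82. Their log2 differences of 0.01 ± 0.047 and 0.01 ± 0.089 (SE, limma adjusted p = 0.96 and 0.94) turned negative with a repeated quantile normalization and with cyclic loess. For Nop14 the 95% interval was -0.10 to 0.11, which leaves out the differences of Wdr75, Utp18 and Wdr43. Rcl1, which is related to RNA cyclases, ran the other way, with 7.52, 7.36, 7.505 and 7.61 in pregnant uteri, against 7.66, 7.71, 7.77 and 7.58 in pseudopregnant uteri. Only pregnant replicate 4 reached the pseudopregnant range, and the log2 difference of -0.18 ± 0.067 (SE) did not pass (limma adjusted p = 0.14).

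Of the 4 factors that act later on the small subunit, 0 passed. Tsr1, which is related to GTPases and binds the maturing subunit, had 7.40, 7.32, 7.49 and 7.57 in pregnant uteri, against 6.97, 7.27, 7.17 and 7.21 in pseudopregnant uteri. Its groups did not overlap (0.29 ± 0.079, SE; limma adjusted p = 0.074). Ltv1, an export and assembly factor, differed by 0.18 ± 0.058 (limma adjusted p = 0.11), again without overlap, and Rrp12 by 0.19 ± 0.10 (0.29). Bysl had 6.01, 6.20, 6.27 and 6.08 in pregnant uteri and 6.20, 6.28, 6.05 and 5.98 in pseudopregnant uteri. Its difference of 0.01 ± 0.082 (SE, limma adjusted p = 0.93) turned negative without pregnant replicate 2 or 3 and without pseudopregnant replicate 3 or 4 (-0.034 to 0.063 over the 8 arrays left out in turn).

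**Figure D3:**
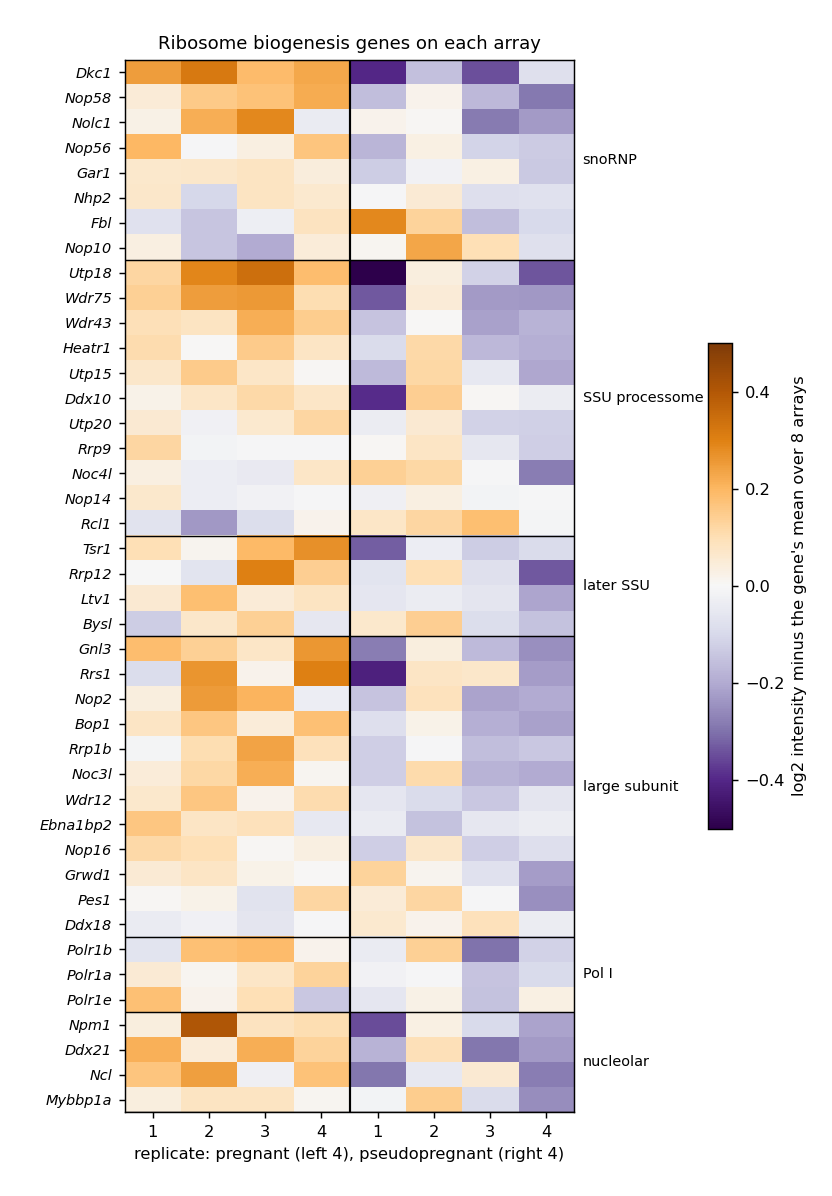
Log2 intensity of 42 genes (rows, by role) on 8 arrays (columns: pregnant replicates 1 to 4 on the left, pseudopregnant replicates 1 to 4 on the right), each minus the gene's mean over the arrays (orange above, purple below). Most rows are orange on the left and purple on the right, and the column of pseudopregnant replicate 2 is paler than its neighbours.

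Of 12 measured large subunit factors, 0 passed and 11 had differences above 0. Gnl3, or nucleostemin, a nucleolar GTP-binding protein, had 7.55, 7.504, 7.44 and 7.62 in pregnant uteri, against 7.08, 7.40, 7.20 and 7.11 in pseudopregnant uteri. The groups did not overlap, though pregnant replicate 3 and pseudopregnant replicate 2 were close, and the log2 difference was 0.33 ± 0.076 (SE, limma adjusted p = 0.057). Bop1, Pes1 and Wdr12 encode the PeBoW complex, which is needed for processing of the large subunit RNAs. Bop1 (0.23 ± 0.066, limma adjusted p = 0.083) and Wdr12 (0.18 ± 0.052, 0.089) did not overlap between groups, whereas Pes1 had 7.13, 7.15, 7.06 and 7.25 in pregnant uteri and 7.18, 7.25, 7.12 and 6.88 in pseudopregnant uteri. Pes1 differed by 0.04 ± 0.082 (SE, limma adjusted p = 0.78), and by -0.035 without pseudopregnant replicate 4, so no difference was detectable for it with 4 arrays per group. The brighter probe set of Wdr12 was flanked by chromosome 7 genes although the gene lies on chromosome 1. The dimmer one, flanked by chromosome 1 genes, differed by 0.25 ± 0.11 (limma adjusted p = 0.20), with overlapping groups. With probe sets flanked by genes of their own chromosome, every pregnant value exceeded every pseudopregnant value for 12 of 42 genes, in place of 13.

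The RNA methyltransferase gene Nop2 (0.23, limma adjusted p = 0.15), Rrp1b (0.21, 0.096), Noc3l (0.19, 0.18), Ebna1bp2 (0.14, 0.18), Nop16 (0.13, 0.23) and Grwd1 (0.08, 0.55) overlapped between groups. Rrs1 was the dimmest of the list and the only member below the intensity line on any array, in pseudopregnant replicate 1 (5.19), so its difference of 0.25 ± 0.13 (SE, limma adjusted p = 0.26) is not exact. The helicase gene Ddx18 had 7.42, 7.44, 7.40 and 7.45 in pregnant uteri, against 7.52, 7.48, 7.55 and 7.42 in pseudopregnant uteri, a log2 difference of -0.07 ± 0.049 (limma adjusted p = 0.44). Here the probe set flanked by genes of its own chromosome, 1, was the brighter one. The other probe set of Ddx18, flanked by chromosome 6 genes, had 7.500, 7.55, 7.46 and 7.61 in pregnant uteri, against 7.40, 7.46, 7.36 and 7.26, and differed by 0.16 ± 0.060 (limma adjusted p = 0.14). The 2 probe sets of Ddx18 therefore disagreed in sign, and their mean differed by 0.048.

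Subunits of RNA polymerase I had small positive differences. Polr1a, the largest subunit, had 7.49, 7.45, 7.52 and 7.57 in pregnant uteri, against 7.43, 7.44, 7.29 and 7.35 in pseudopregnant uteri, with a very narrow gap between the groups. The log2 difference was 0.13 ± 0.054 (SE, limma adjusted p = 0.18). Polr1b (0.16, limma adjusted p = 0.34) and Polr1e (0.08, 0.56) overlapped between groups.

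The abundant nucleolar proteins had the highest median difference of the role groups, 0.29 over 4 genes, and 0 of them passed. Ddx21, a helicase of the nucleolus, had 8.42, 8.25, 8.43 and 8.34 in pregnant uteri, against 8.03, 8.30, 7.92 and 7.98 in pseudopregnant uteri. Pseudopregnant replicate 2 was above pregnant replicate 2, and the log2 difference was 0.30 ± 0.085 (SE, limma adjusted p = 0.080). Nucleophosmin (Npm1), a histone and ribosome chaperone, had 9.02, 9.39, 9.07 and 9.09 in pregnant uteri, against 8.64, 9.02, 8.89 and 8.77 (0.32 ± 0.10, SE; limma adjusted p = 0.11). Nucleolin (Ncl), which binds the nascent ribosomal RNA, had 9.86, 9.94, 9.68 and 9.87, against 9.41, 9.65, 9.76 and 9.42 (0.28 ± 0.091, SE; limma adjusted p = 0.11). The pregnant values of Npm1 all exceeded the pseudopregnant ones by the unrounded values, while those of Ncl overlapped through pseudopregnant replicate 3. Mybbp1a, which binds MYB and acts on ribosomal RNA transcription, differed by 0.10 ± 0.079 (limma adjusted p = 0.45).

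**Figure D4:**
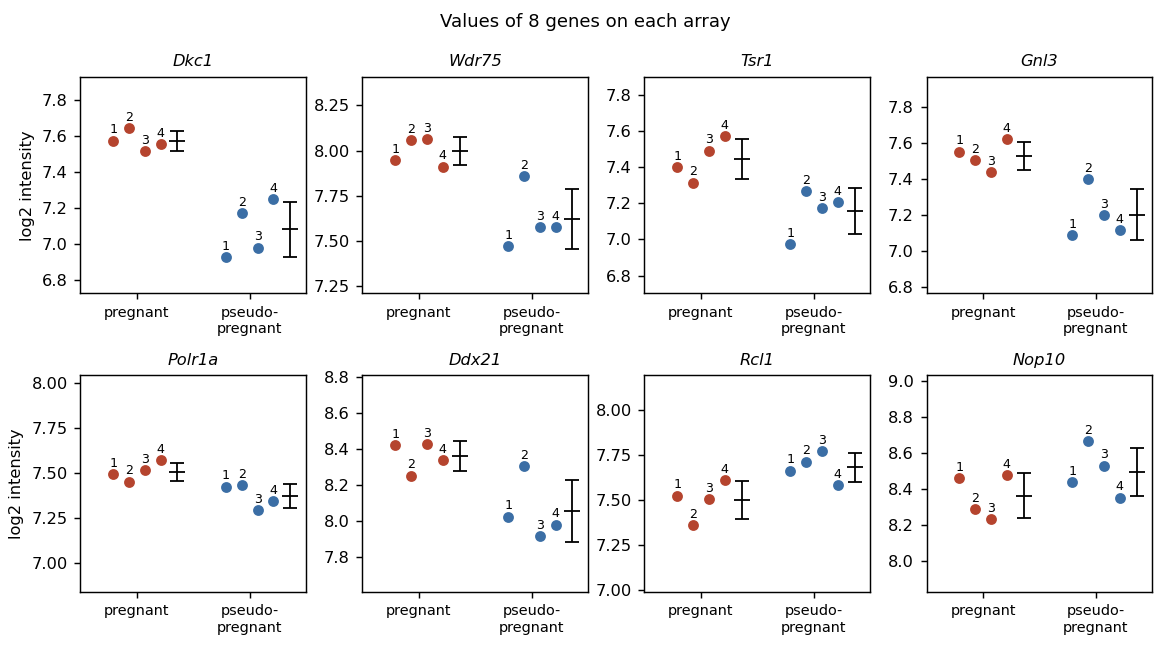
Log2 intensity (vertical axis, the same span in each panel) of 8 genes on the pregnant (red, left) and pseudopregnant (blue, right) arrays, numbered by replicate, with the mean and SD of 4 arrays beside them. Dkc1, Wdr75, Tsr1, Gnl3 and Polr1a do not overlap between groups, Ddx21 overlaps through pseudopregnant replicate 2, and Rcl1 and Nop10 have lower means in the pregnant group.

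The pseudopregnant uteri differed among themselves in these genes more than the pregnant uteri did. The mean over the 42 genes was 7.36, 7.38, 7.39 and 7.38 in the pregnant uteri, against 7.19, 7.34, 7.19 and 7.13 in the pseudopregnant uteri (7.37 ± 0.013, against 7.21 ± 0.090; SD, n = 4 each). Pseudopregnant replicate 2 lay just under the pregnant range. It had the highest pseudopregnant value for 30 of 42 genes (71.4%, against 28.6% of all probe sets). For 24 genes (57.1%, against 13.2% of all probe sets) every pregnant value exceeded those of pseudopregnant replicates 1, 3 and 4, a comparison chosen after the values were seen, and 11 of these overlapped through replicate 2 alone. Without pseudopregnant replicate 2, limma called 3 of 42 genes (Dkc1, Wdr75 and Gnl3) and 0.40% of all probe sets. The median difference of the 42 genes was then 0.21, and 28 of them were higher at an unadjusted p under 0.05, against 14.2% of all probe sets. This array was singled out for its high values in these same genes, so larger differences without it follow from that choice. Without any other single array, the median ran between 0.145 and 0.172, and 15 to 19 genes were higher by that p. The SD was lower in the pregnant group for 33 of 42 genes (78.6%, against 50.3% of all probe sets). Pregnant replicate 2, which stood apart in cell cycle genes, had the highest pregnant value for 9 of 42 genes (27.3% of all probe sets).

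Promoter entries of RefSeq (build GRCm38.p6, 250 bases before to 50 bases after the annotated start) matched 37 of the 42 genes by symbol. Fbl, Rrp12, Rrs1, Bop1 and Npm1 had no entry. The E-box CACGTG, the palindrome bound by MYC with its partner MAX, is shown because its share within the first 50 bases differed most from that of all genes among the 4 motifs searched, a choice made after the counts were seen. It was found in 9 of 37 entries (24.3%), against 11.5% of the 10105 kept protein-coding genes with an entry. The excess lay after the start, where 7 of 37 genes (18.9%) and 1.74% of all genes carried it within the 50 bases, while before the start 2 of 37 (5.41%) and 9.73% of all genes did. The matches are printed 5′ to 3′ on the strand of the gene with up to 12 bases on each side, fewer where the entry ends, and the E-box is in capitals. The first base of the E-box lay between bases 3 and 41 after the start, except in Nop2 and Utp18, where it lay 60 and 20 bases before it.
Pes1 (chr11:3963965-3963994, plus strand): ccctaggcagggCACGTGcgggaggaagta
Wdr43 (chr17:71616220-71616249, plus strand): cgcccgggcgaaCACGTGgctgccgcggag
Tsr1 (chr11:74898092-74898121, plus strand): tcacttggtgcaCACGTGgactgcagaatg
Ltv1 (chr10:13193092-13193121, minus strand): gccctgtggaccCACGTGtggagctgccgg
Grwd1 (chr7:45830740-45830767, minus strand): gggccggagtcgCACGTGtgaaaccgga
Utp20 (chr10:88826765-88826789, minus strand): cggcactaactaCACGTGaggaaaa
Mybbp1a (chr11:72441355-72441376, plus strand): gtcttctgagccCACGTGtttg
Utp18 (chr11:93885769-93885798, minus strand): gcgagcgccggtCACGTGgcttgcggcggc
Nop2 (chr6:125131811-125131840, plus strand): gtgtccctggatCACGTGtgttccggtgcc
The log2 differences of these 9 genes had a median of 0.18 and ran between 0.04 (Pes1) and 0.47 (Utp18). The 28 genes with an entry but without the E-box had a median of 0.14 and ran between -0.18 and 0.49, so Dkc1, the gene that rose, was not among the matches. A match is a run of letters in the reference and not a measured binding site.

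Other genes of ribosome assembly had small positive differences as well. Of 37 measured small subunit factors outside the list, 0 passed the limma threshold, and the median log2 difference was 0.12. At an unadjusted limma p under 0.05, 15 lay higher and 2 lay lower, against 14.3% and 9.43% of all probe sets. The smallest p belonged to Utp11 (0.26, limma adjusted p = 0.058), the RNA dimethyltransferase gene Dimt1 (0.36, 0.060), Wdr36 (0.22, 0.064) and Utp4 (0.30, 0.070). Of 43 measured large subunit factors, 0 passed, 18 lay higher and 1 lay lower by the same unadjusted p, and the median was 0.13. Gnl3l, a relative of Gnl3 (0.27, limma adjusted p = 0.051), Brix1 (0.29, 0.052), the helicase gene Ddx56 (0.24, 0.060) and Rsl1d1 (0.34, 0.061) led that list. Pseudopregnant replicate 2 was the highest pseudopregnant array in the mean of both lists, at 6.94 and 7.33.

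Of 14 further genes of RNA polymerase I transcription, 0 passed and the median difference was 0.06, with Taf1d at 0.18 (limma adjusted p = 0.11), Cd3eap at 0.12 (0.16), the terminator Ttf1 at -0.13 (0.20) and Twistnb at 0.18 (0.27). Of 11 snoRNP assembly genes, 0 passed and the median was 0.13, with Snu13 at 0.30 (limma adjusted p = 0.096), the dyskerin chaperone Shq1 at 0.19 (0.13), Znhit3 at -0.13 (0.15) and Ruvbl2 at 0.14 (0.17). The probe set of Snu13 was not flanked by genes of its own chromosome. With probe sets so flanked, the median of the list was also 0.13. In the list of the RNA exosome, the complex that trims the 3′ ends of ribosomal RNA precursors, 2 of 13 rose and the median was 0.16. Exosc1 rose by 0.26 ± 0.055 (SE, limma adjusted p = 0.046), and its call was lost whichever array was left out (0.057 to 0.11). The other, Mpp6 (0.45 ± 0.096, limma adjusted p = 0.049), carries a symbol that in the mouse names a membrane scaffold protein, and without it 1 of 12 rose, with a median of 0.14. Its call was also lost whichever array was left out (0.050 to 0.12). Exosc9 (0.26, limma adjusted p = 0.061) and Exosc8 (0.33, 0.070) did not pass.

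Ribosomal protein genes did not share the positive differences of the assembly factors. Of 22 measured small subunit proteins, 0 passed, 18 had differences below 0 and the median was -0.07, with Rps28 at -0.40 (limma adjusted p = 0.058), Rps12 at -0.30 (0.070), Rps21 at -0.25 (0.085) and Rps29 at -0.23 (0.16). Of 33 measured large subunit proteins, 0 passed, 24 had differences below 0 and the median was -0.03. Rpl22 (-0.23, limma adjusted p = 0.070), Rpl13 (-0.27, 0.14) and Rpl37a (-0.19, 0.15) lay below 0, and Rpl12 (0.22, 0.079) lay above it. Many ribosomal protein genes have near-identical processed copies, whose probe sets the deposited values cannot separate. The probe sets of Rps12, Rpl13 and Rpl37a were not flanked by genes of their own chromosome. With the probe set flanked by genes of the gene's own chromosome, the medians were -0.06 and -0.03, and 1 large subunit gene, Rpl23, fell (8.49, 8.52, 8.56 and 8.66 in pregnant uteri, against 8.80, 8.79, 8.91 and 8.899 in pseudopregnant uteri; -0.29 ± 0.057, SE; limma adjusted p = 0.039). Rpl23 was named after its values were seen, and its brighter probe set gave -0.13 (limma adjusted p = 0.17).

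**Figure D5:**
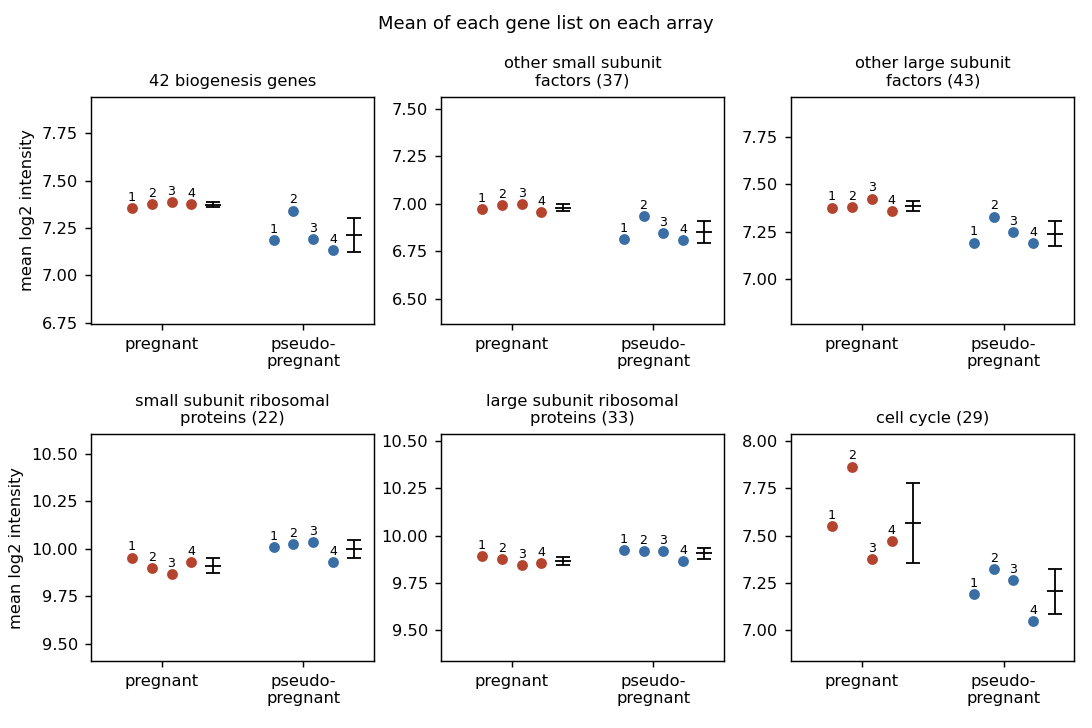
Mean log2 intensity of 6 gene lists on each array (vertical axes of equal span; red, pregnant; blue, pseudopregnant; numbers, replicates), with the mean and SD of 4 arrays beside the points. The assembly factor lists lie higher in the pregnant group, the ribosomal protein lists do not, and pregnant replicate 2 lies far above its group in the cell cycle list only.

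In the list of the MYC network and growth control, 0 of 16 measured genes passed and the median difference was -0.03. Myc itself, which drives transcription of ribosome biogenesis genes, had log2 intensities of 8.98 ± 0.16 in pregnant uteri, against 9.05 ± 0.034 in pseudopregnant uteri (SD, n = 4 each), and differed by -0.06 ± 0.078 (SE, limma adjusted p = 0.65). The GTPase gene Rheb, an activator of the growth kinase mTOR, differed by 0.34 (limma adjusted p = 0.055), and Tsc1, part of the complex that restrains Rheb, by -0.20 (0.067), both without overlap of groups. Mycl (-0.16, limma adjusted p = 0.25) and Mxd1 (0.10, 0.30) overlapped.

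Some snoRNAs are encoded inside genes of these proteins. The RefSeq gene table placed 19 snoRNAs within the spans of 7 of the 43 genes, strand not considered, and 4 of the 19 had a probe set. Snora75, which lies in Ncl, had 6.26, 6.10, 6.12 and 6.23 in pregnant uteri, against 5.51, 5.73, 5.80 and 5.88 in pseudopregnant uteri. The groups did not overlap, and it rose by 0.45 ± 0.081 (SE, limma adjusted p = 0.034). The call held without pseudopregnant replicate 4 (0.032) and was lost without any other single array (0.050 to 0.073). Snord82, also in Ncl, differed by -0.03 ± 0.071 (limma adjusted p = 0.83), Snord57, in Nop56, by -0.10 ± 0.050 (0.27), and Snord53, in Wdr43, by -0.02 ± 0.063 (0.87). The signs for Snord82 and Snord53 turned without single arrays. Total RNA was labelled, so a probe set of an intronic snoRNA can also hybridise with unspliced host RNA.

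Among the cell type markers examined, only those of macrophages and of lymphocytes and natural killer cells included genes that rose. Of 9 measured macrophage markers 6 rose, with list means per array of 7.02 to 7.24 in pregnant uteri, against 6.75 to 6.81 in pseudopregnant uteri. Of 7 measured lymphocyte and natural killer cell markers 4 rose, namely Gzmb, Prf1, Il2rb and Ncr1 (list means 6.10 to 6.65, against 5.42 to 5.92). Klrd1 (0.90, limma adjusted p = 0.053) and the T cell genes Cd3e (-0.15, 0.30) and Cd3g (0.04, 0.90) did not pass. Only 4 of these 7 markers lay above the intensity line on every array. Of 29 measured cell cycle genes 2 rose, Pcna (0.55, limma adjusted p = 0.028) and Ccne2 (0.77, 0.046), and Mcm5 (0.43, 0.055) and Mcm4 (0.47, 0.057) did not pass. Of the 29, 28 had differences above 0, and the median log2 difference was 0.35, against 0.16 for the 42 ribosome biogenesis genes. At an unadjusted limma p under 0.05, 19 lay higher and 0 lower, against 14.3% and 9.43% of all probe sets. The call of Pcna held without pregnant replicate 3 (0.016) or pseudopregnant replicate 4 (0.047) and was lost without any other array (0.052 to 0.077), and that of Ccne2 held without pregnant replicate 3 (0.046) or pseudopregnant replicate 2 (0.045) and was lost without any other (0.067 to 0.11). Cell cycle means were 7.55, 7.86, 7.38 and 7.47 in pregnant uteri, against 7.19, 7.32, 7.26 and 7.05 in pseudopregnant uteri. Of 11 epithelial markers 0 passed and 9 had differences below 0 (7.05 to 7.40, against 7.30 to 7.71). All 10 stromal markers had differences above 0 (9.99 to 10.07, against 9.85 to 9.9999) and all 8 endothelial markers below 0 (8.25 to 8.45, against 8.50 to 8.596), with 0 passing in either list. Of 8 smooth muscle markers 0 passed and 5 had differences above 0 (9.90 to 10.14, against 9.79 to 10.08). Of 9 blastocyst markers, 6 were below the intensity filter, among them Pou5f1, Nanog and Cdx2, and 0 passed among the other 3 (Eomes, Gata4 and Gata6). Eomes differed by 0.72 (limma adjusted p = 0.057) without overlap of groups, but lay below the intensity line on 4 arrays. Its highest arrays were pregnant replicate 2 and pseudopregnant replicate 4. Those were also the highest for Gzmb, Il2rb, Ncr1, Klrd1 and Cd3g, but not for Prf1 or Cd3e. Which cells gave the Eomes signal was not tested. Gata4 (-0.19, 0.28) and Gata6 (-0.17, 0.18) had differences below 0. The part of these cell types in the differences of the ribosome biogenesis genes was not tested. Without pregnant replicate 2, the array with the highest cell cycle mean, the median difference of the 42 genes was 0.15, Dkc1 was the only gene called (limma adjusted p = 0.047), and 37 genes had differences above 0.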

How the data were processed

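Total RNA of 8 uteri, extracted with Trizol and labelled with biotin, was hybridised to gene expression arrays, per the labels. The deposited intensities were made with RMA (version not given), per the submitters' processing notes, on a linear scale judged from the values, which reached 8112.9. The sources used here do not name the software or the annotation build. RMA compresses changes of dim genes and makes array distributions alike. Here, log2 was taken, 6617 probe sets with identifiers below the first named one were left out as presumed controls, and 17491 of the other 28939 were kept, with at least 4 arrays above the 40th percentile of their array. Of the 28939, 21789 had 1 gene symbol, 1621 several and 5529 none.

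Groups were compared with limma 3.58.1 (lmFit, eBayes; R 4.3.3), two-sided, with Benjamini-Hochberg adjustment over all kept probe sets. Named genes were those called, the smallest p in each role group, those nearest 0 and those below 0, with up to 4 per further list; Myc was named in addition. Members and lists were chosen with earlier results of these data known. A probe set was placed by the majority chromosome of its 10 neighbours on each side in identifier order, a choice made after seeing the data. The fit was first tested on simulated data, with changes of 1.5-fold and 2-fold in 200 of 17491 probe sets and noise drawn independently for each probe set. It called 87% and 98% of these changes, and 3.14% of its calls were false. Smaller changes, such as those of the ribosome biogenesis genes, were not simulated. Nothing in the labels gives a batch. Separate animals are not named beyond "biological" replicates, so p-values set the group difference against the spread among these samples. Figures used matplotlib 3.10.9 in Python 3.11.15. Alternatives were another filter, normalization, probe set choice and variance model, a replicate block and leaving out each array.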

Additional observations from a re-analysis of the deposited data

Results flagged for a closer look

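In 4 of 84 sets of 4 arrays (42 genes in 2 groups), a single value stood far from the other 3, a share that chance alone gives in about 1 of 20 sets. Nhp2 was low in pregnant replicate 2 (6.13, against 6.29 to 6.31 on the other pregnant arrays). Rrp9 was high in pregnant replicate 1 (6.37, against 6.24 to 6.25). Ltv1 was low in pseudopregnant replicate 4 (6.07, against 6.22 to 6.24 on the other pseudopregnant arrays). Ebna1bp2 was low in pseudopregnant replicate 2 (6.603, against 6.70 to 6.72), the array that was otherwise high within its group in these genes.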

How the results depend on the processing

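Of the 42 genes, 36 kept the sign of their difference under every alternative in which they were measured (31 under 18, and 5 under 17, since the stricter filter left them out), and the median difference, 0.16, stayed between 0.14 and 0.21. Counts of calls depended on the settings. The 319 probe sets called became 54 without the intensity filter, 568 with an intensity trend, 174 under the replicate block, and 40 to 235 without single arrays. The count of ribosome biogenesis genes called, 1, became 0 without the filter, 5 with the stricter filter at the 60th percentile (36 genes tested), 6 with the trend, 3 with array weights, 2 with the replicate block, and 0 to 3 without single arrays; fewer arrays leave fewer degrees of freedom, and the other causes were not tested. Beside Dkc1, the genes gained under some setting were Nop58, Wdr43, Wdr75, Utp18 and Gnl3. At an unadjusted p under 0.05, 15 to 28 genes were higher over the settings, with 9.30% to 17.6% of all probe sets. The sign of Fbl turned with the mean of its probe sets (0.019) and with the probe set on its own chromosome (0.12), that of Ddx18 with the mean of its probe sets (0.048), and those of Nop14 and Noc4l with a repeated quantile normalization (-0.0148 and -0.0143) and cyclic loess (-0.00620 and -0.00475). Snord53 turned with array weights (0.010). Without single arrays, the differences ranged from -0.034 to 0.063 for Bysl, -0.15 to 0.0021 for Fbl, -0.077 to 0.062 for Noc4l, -0.016 to 0.017 for Nop14, -0.035 to 0.089 for Pes1, -0.072 to 0.012 for Snord53 and -0.088 to 0.025 for Snord82. The labels give no pairing of replicates across the groups, so the block has no basis in them. Deviations of replicates of the same number correlated at 0.24, 0.016, -0.10 and 0.044. Those of different numbers correlated between -0.21 and 0.14.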

Other observations

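The E-box after the start was also counted in the other lists. It was present in 2 of 28 entries (7.14%) of the other small subunit factors, Pno1 and Utp4, and in 4 of 35 (11.4%) of the other large subunit factors, Mdn1, Nle1, Rpf2 and Sdad1, against 1.74% of all genes. It was present in 0 of 19 and 0 of 25 entries of ribosomal proteins of the small and large subunit in 0 of 22 of cell cycle genes, and in 1 of 13 (7.69%) of RNA polymerase I machinery genes, Cd3eap. In the lists of snoRNP assembly, the RNA exosome and the MYC network it was present after the start in 0 of 9, 0 of 11 and 0 of 14 entries. Over the whole window the E-box was in 35.7% of MYC network entries, against 24.3% of the ribosome biogenesis entries and 11.5% of all genes. The other small and large subunit factors had 21.4% and 20%, and ribosomal proteins of the small and large subunit 5.26% and 16%. RNA polymerase I machinery had 15.4%, the RNA exosome 9.09%, cell cycle genes 4.55% and snoRNP assembly 0%. Over the whole window of 300 bases, the ETS motif CCGGAAG, searched on both strands, was in 35.1% of the 37 ribosome biogenesis entries and 18.7% of all genes, the GC box GGGCGG in 78.4% and 68%, and the NRF1 motif in 0% and 2.19%. The median GC content of the entries was 58%, against 60.7% over all genes. These are counts of letters in the reference, with no measure of binding in these uteri.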
